A study of Mus musculus with 2 samples.

Results

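Interferon response genes were examined in the proximal small intestine of mice without CD36, which takes up fatty acids and oxidised lipoproteins at the cell surface. The 36 genes were fixed by name, 26 as targets of type I interferon and 10 as targets of interferon gamma, among 18194 genes named on the array. A gene was taken as measured where a probe set (a group of short probes for one transcript) carried its symbol and no other, which held for 32 genes and 50 probe sets. Isg15, Gbp4 and Tgtp1 had only probe sets that share their annotation with another gene, and Ifi44 had none with its symbol, so these 4 were not analysed here.

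The CD36KO group was a pool of RNA from 3 chow-fed mice with a germline deletion of Cd36 on the C57BL/6 background, and the WT group was a pool from 3 chow-fed wild-type mice of that background. Each pool was hybridised to 1 Affymetrix array, so n = 1 per genotype. Age and sex were not given. All cells of the gut wall had lost Cd36 in the CD36KO mice, and the tissue was the whole wall of the upper part of the gut, so fewer cells of a type and less RNA per cell cannot be told apart.

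Type I interferons act on nearly every cell through the receptor chains Ifnar1 and Ifnar2, and the related lambda interferons act on intestinal epithelium through Ifnlr1. Both lead to a complex containing STAT2 and IRF9 that binds a promoter sequence called the interferon-stimulated response element (ISRE) and turns on antiviral genes. Interferon gamma, made chiefly by T and NK cells, acts through Ifngr1 and Ifngr2 on a different element, the gamma-activated site (GAS), and turns on IRF1 and families of GTPases that attack intracellular pathogens.

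All values are the deposited log2 signals, and a difference is CD36KO minus WT. No test was possible with 1 array per genotype, no difference could be set against the spread between animals or arrays, and counts past a fold describe these arrays. A gene passed the expression filter where the higher of its values reached 4.51, which is the median of such higher values over the whole table of 45101 probe sets. All 32 measured members passed it, in both pools. The middle 95% of the 11981 genes above the filter lay between -0.65 and 0.80. In 4801 genes with a second probe set above the filter, the differences at the pair of probe sets were 0.26 apart in the median, and 57.3% of these pairs had the same sign. Of the 11 members with such a pair, all had the same sign, at a median distance of 0.29.

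Some values that do not belong to interferon genes also differed between the arrays. The 3 probe sets of Cd36 were 2.33-fold to 3.56-fold lower in CD36KO; whether they lie in the deleted part of the gene was not stated. The gap between 3' and 5' control probe sets, which grows as RNA breaks down, was smaller in the CD36KO pool, at 1.34 in CD36KO and 2.28 in WT for Actb and at 0.71 in CD36KO and 1.28 in WT for Gapdh. Past 1.5-fold, 7 of 7 genes listed for the distal small intestine and above the filter in both pools were higher in CD36KO, and 6 of 9 listed for the proximal part were lower. The other distal genes, Fgf15 and Slc10a2, passed the filter through the CD36KO pool alone. The median difference was 1.55 over the 7 distal genes and -0.94 over the 9 proximal genes. The widest was that of the distal Fabp6, at 12.92 in CD36KO and 6.25 in WT (6.67, 102-fold higher). Enterocyte markers such as Vil1 and Fabp2 had a median difference of -0.03 over 9 genes. The part of these shifts in the interferon genes was not tested.

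The interferon response genes did not differ in one direction. Of the 32, 16 were higher and 16 lower in the CD36KO pool, and their median difference was 0.00, beside -0.01 over all genes above the filter. At least 1.5-fold higher were 3 members, Ifit2, Iigp1 and Gbp2, which is 9.38% of those measured, beside 5.31% of all genes above the filter. At least 1.5-fold lower were 3 members, Rsad2, Trim30a and Ifit3, again 9.38%, beside 3.31% of all genes. At 2-fold, 2 members were higher, Ifit2 and Iigp1, beside 1.61% of all genes, and 1 was lower, Rsad2, beside 0.626%. These shares rest on very few genes, and 26 members lay within 1.5-fold. The median size of a difference, sign ignored, was 0.24 for the members and 0.19 for all genes.

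**Figure D1:**
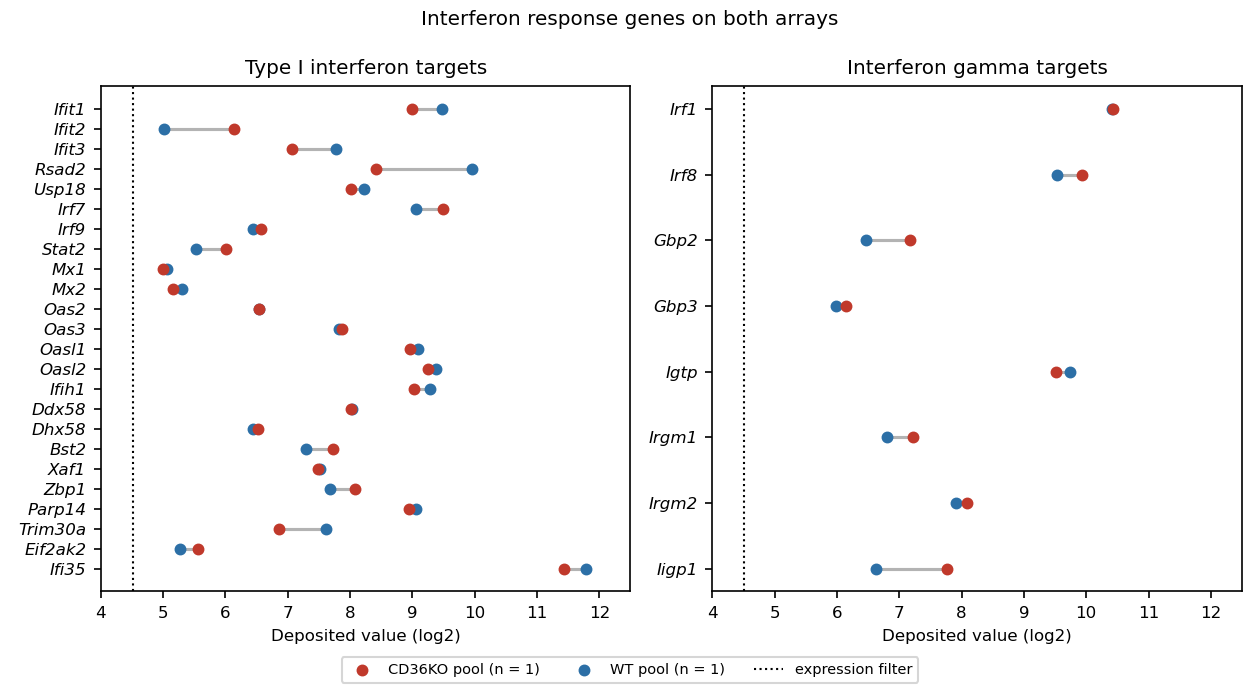
Deposited log2 value (horizontal axis) of each measured member at the probe set used for the gene, with the CD36KO pool in red and the WT pool in blue, 1 array each; the dotted line is the expression filter of 4.51. Rsad2 lies furthest to the left of its WT value, and Ifit2 and Iigp1 furthest to the right.

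Type I and gamma targets differed in their medians while their ranges overlapped. The 24 type I targets had a median difference of -0.05, with 9 higher and 15 lower. Past 1.5-fold, 1 was higher and 3 lower. The 8 gamma targets had a median of 0.28, with 7 higher and 1 lower. Past 1.5-fold, 2 were higher and 0 lower. Of all genes above the filter, 48.8% were higher, and past 1.5-fold 5.31% were higher and 3.31% lower. The type I and gamma medians were 0.34 apart, and this gap was not tested. Probe sets of a single gene disagreed by 0.26 in the median, but that distance does not measure the spread of a list median. With the least different probe set of each gene the gamma median was 0.17. With a threshold of 25% in place of 1.5-fold, 4 gamma targets were higher and 0 lower, and 5 type I targets were higher and 5 lower. At that threshold 14.7% of all genes above the filter were higher and 12.9% lower.

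Of the type I targets, the IFIT proteins and viperin held the widest spread. The IFIT proteins bind foreign RNA and block its translation, and viperin, encoded by Rsad2, makes a nucleotide that stops viral polymerases. Rsad2 read 8.42 in CD36KO and 9.96 in WT, a difference of -1.54 (2.91-fold lower), and 16 of the 11981 genes, itself included, were as low or lower. A second Rsad2 probe set read 5.98 in CD36KO and 7.53 in WT, again a difference of -1.54. The weakest, near the filter at 4.96 in CD36KO and 5.20 in WT, differed by -0.24. Rsad2 was therefore the member with the most disagreement between its probe sets, though each was lower in the CD36KO pool.

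Ifit3 read 7.07 in CD36KO and 7.77 in WT, a difference of -0.70 (1.63-fold lower). Ifit3 has a near-identical copy, Ifit3b, on the same chromosome, so its signal cannot be given to 1 gene with certainty. Ifit1 read 8.99 in CD36KO and 9.47 in WT, a difference of -0.47 that stayed within 1.5-fold. Ifit2 went the other way, with 6.14 in CD36KO and 5.01 in WT, a difference of 1.13 (2.20-fold higher), and 141 genes were as high or higher. Ifit2 has a single probe set, and its WT value lay close to the filter. So within one family of neighbouring genes the CD36KO pool was lower for Ifit1 and Ifit3 and higher for Ifit2.

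Genes next to these members were mixed. Cmpk2, a mitochondrial nucleotide kinase and interferon target that adjoins Rsad2, read 7.91 in CD36KO and 8.37 in WT (-0.46), but a weaker probe set differed by 0.42. Rnf144a, on the other side of Rsad2, differed by 0.02. Lipa, the lysosomal acid lipase gene beside Ifit2, read 8.24 in CD36KO and 9.15 in WT (-0.90), and Ifit1bl1, the gene after Ifit3, differed by 0.44. Measured neighbours of Rsad2 and Ifit3 thus lay on both sides of 0. Trim30d, the only measured gene of those nearest to the lower Trim30a, was lower as well (-0.88). Some neighbours, such as Ifit3b, were not measured, and an effect over a stretch of neighbouring genes was not tested.

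The promoters of 5 members past 1.5-fold are shown because genes that share an ISRE were found on either side. Each stretch holds the 160 bases before the transcription start from RefSeq (GRCm38.p6), 5' to 3' on the strand of the gene, with matches to the core of the ISRE in capitals. This core was searched on both strands as GAAA, any base at 2 positions, then GAAA, and all matches shown are on the opposite strand, where they read TTTC at either end. Rsad2 lies at chr12:26456453-26456612 (minus strand), Trim30a at chr7:104465194-104465353 (minus strand), Ifit3 at chr19:34583369-34583528 (plus strand), Ifit2 at chr19:34550534-34550693 (plus strand) and Gbp2 at chr3:142620503-142620662 (plus strand). Trim30a and Ifit2 have a further start in RefSeq, and the more upstream one is shown.
Rsad2: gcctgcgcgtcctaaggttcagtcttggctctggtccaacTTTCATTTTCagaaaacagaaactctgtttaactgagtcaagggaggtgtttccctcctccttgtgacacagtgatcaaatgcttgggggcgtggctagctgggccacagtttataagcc
Trim30a: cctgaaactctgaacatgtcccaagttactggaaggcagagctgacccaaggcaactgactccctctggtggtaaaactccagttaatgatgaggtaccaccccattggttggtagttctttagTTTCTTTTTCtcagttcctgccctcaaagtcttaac
Ifit3: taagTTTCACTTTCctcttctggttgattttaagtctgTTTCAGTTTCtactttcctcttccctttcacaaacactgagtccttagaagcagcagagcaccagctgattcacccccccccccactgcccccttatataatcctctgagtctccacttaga
Ifit2: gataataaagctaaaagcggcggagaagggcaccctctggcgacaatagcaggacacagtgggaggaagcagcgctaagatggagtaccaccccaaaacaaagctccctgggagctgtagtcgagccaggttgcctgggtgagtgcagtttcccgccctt
Gbp2: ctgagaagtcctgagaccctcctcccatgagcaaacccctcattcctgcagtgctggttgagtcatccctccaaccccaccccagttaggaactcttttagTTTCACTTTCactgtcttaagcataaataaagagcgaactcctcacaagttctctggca

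The match begins 120 bases before the start in Rsad2, 36 in Trim30a, 59 in Gbp2, and 156 and 122 in Ifit3. Neither Ifit2 window holds these letters. The search takes exact letters only, so a gene without a match may still carry an ISRE. In the 250 bases before each start, the ISRE core was found in 42.1% of 19 type I targets and 75% of 8 gamma targets with a RefSeq promoter, beside 3.46% of all 27025 genes. The motif TTCNNNGAA, a form of the GAS that reads the same on both strands, was found in 15.8% of the type I and 62.5% of the gamma targets, beside 8.13% of all genes. Of type I targets with a promoter window, the ISRE core was found in 3 of 3 that were at least 1.5-fold lower, in 4 of 13 within 1.5-fold (Bst2, Ifit1, Oas3 and Stat2) and in neither window of the higher Ifit2. For Trim30a the further window, not shown, holds no match. Of gamma targets it was found in the higher Gbp2 and in 4 of 6 within 1.5-fold. These counts are a description, and no comparison between them was made.

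**Figure D2:**
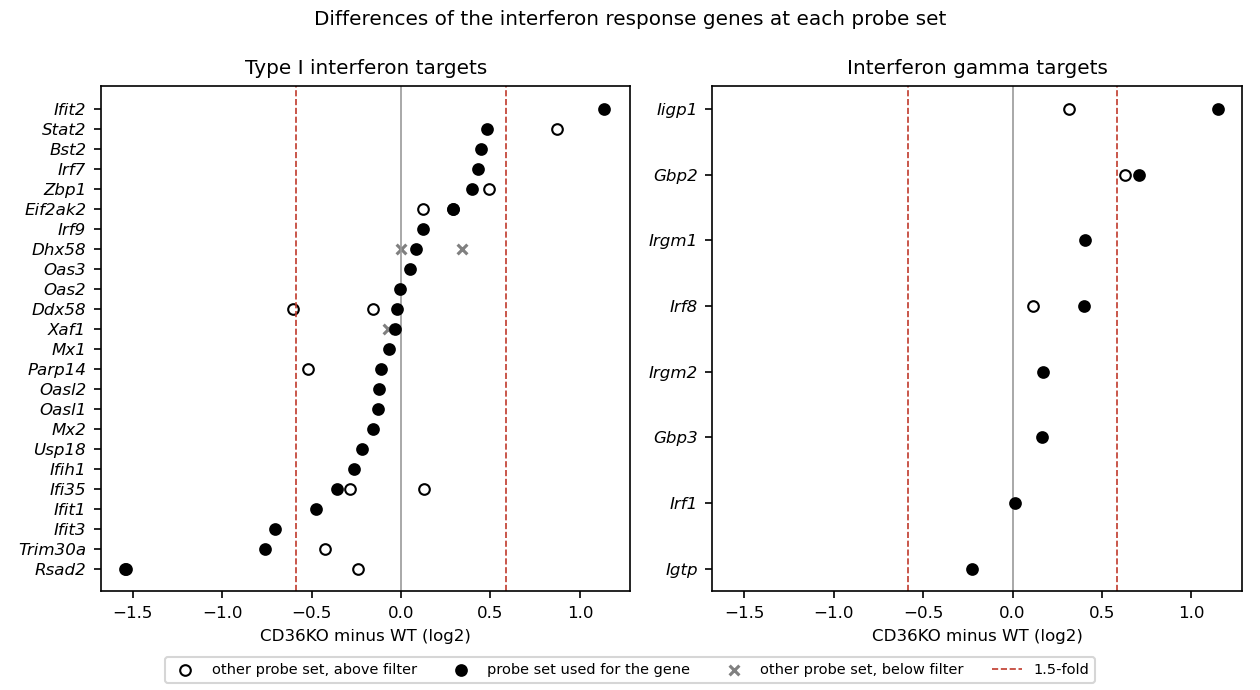
CD36KO minus WT difference (log2, horizontal axis) of each measured member at the probe set used for the gene (filled), at other probe sets above the filter (open) and below it (crosses), with dashed lines at 1.5-fold. Type I targets run from -1.54 to 1.13 and gamma targets from -0.23 to 1.15; a second probe set of Rsad2 lies under its filled point.

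The other antiviral effectors differed little. Mx1 and Mx2, GTPases that trap viral nucleoproteins, differed by -0.07 and -0.16, and C57BL/6 mice carry an Mx1 allele with a coding deletion. Oas2 and Oas3, synthetases whose product activates RNase L, differed by -0.01 and 0.05, and their relatives Oasl1 and Oasl2 both differed by -0.13. Bst2, or tetherin, which holds budding viruses at the cell surface, had the highest difference of these genes, with 7.73 in CD36KO and 7.28 in WT (0.45). All 7 lay within 1.5-fold.

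Sensors of foreign nucleic acid differed in both directions. Zbp1, a Z-form nucleic acid sensor that can start necroptosis, read 8.07 in CD36KO and 7.68 in WT (0.39), with 0.49 at its second probe set. Eif2ak2, the kinase PKR that stops translation on double-stranded RNA, differed by 0.29, and by 0.29 and 0.12 at its other probe sets. The RNA helicases Ifih1, Ddx58 and Dhx58 differed by -0.26, -0.02 and 0.08, but a weaker Ddx58 probe set, with 4.91 in CD36KO and 5.51 in WT, differed by -0.60. Of these 5 genes 0 passed 1.5-fold at the probe set used.

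The members that are transcription factors of type I signalling, Stat2, Irf7 and Irf9, were all higher in the CD36KO pool, and within 1.5-fold at the probe set used. Stat2, a partner in the ISRE-binding complex, read 6.00 in CD36KO and 5.53 in WT (0.48). Its second probe set, past 1.5-fold, read 5.34 in CD36KO and 4.47 in WT (0.87). That probe set passed the filter through the CD36KO pool alone. Irf7, which drives interferon alpha genes, read 9.49 in CD36KO and 9.06 in WT (0.43). Irf9, the DNA-binding partner of Stat2, differed by 0.12. Their targets lay on both sides of 0, with Rsad2, Ifit1 and Ifit3 lower and Ifit2, Bst2, Zbp1 and Eif2ak2 higher.

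The remaining type I targets were all lower. Trim30a, a ubiquitin ligase family member that restrains Toll-like receptor signalling in mice, read 6.85 in CD36KO and 7.61 in WT, a difference of -0.76 (1.70-fold lower). Its second probe set read 6.20 in CD36KO and 6.62 in WT (-0.42). Trim30d, its neighbour and close relative, read 8.55 in CD36KO and 9.43 in WT (-0.88), and the relatedness of these genes leaves their signals uncertain. Ifi35 differed by -0.35 at its strongest probe set, by -0.29 at the next and by 0.13 at the weakest. Usp18, a protease that removes ISG15 and dampens the type I receptor, differed by -0.22, Parp14 by -0.11 and Xaf1 by -0.03.

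Among the gamma targets the immunity-related GTPases, which disrupt the vacuoles of intracellular parasites, held the widest difference. Iigp1 read 7.77 in CD36KO and 6.62 in WT, a difference of 1.15 (2.22-fold higher), and 134 genes were as high or higher. Its second probe set read 6.44 in CD36KO and 6.12 in WT (0.32), within 1.5-fold. Irgm1, which regulates the family and autophagy, read 7.21 in CD36KO and 6.81 in WT (0.41). Irgm2 differed by 0.17, and Igtp was the only lower gamma target, with 9.52 in CD36KO and 9.74 in WT (-0.23).

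Gbp2, a guanylate-binding protein that coats pathogen membranes, was higher at both of its probe sets. They read 7.18 and 7.01 in CD36KO, against 6.47 and 6.38 in WT, differences of 0.71 (1.63-fold higher) and 0.63. Gbp3, of the same family, differed by 0.16. Irf1, the factor at the head of the gamma response, read 10.43 in CD36KO and 10.42 in WT (0.01). Irf8, a factor of myeloid and B cells as well as of the gamma response, read 9.94 in CD36KO and 9.54 in WT (0.40), with 0.11 at its second probe set. Gbp2 was the single gamma target past 1.5-fold at every probe set.

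Upstream of these genes, no interferon measured here was above the filter. All 9 ligands measured, of 16 listed, were below it in both pools. Ifng read 2.91 in CD36KO and 2.54 in WT, and Ifnb1 read 3.63 in CD36KO and 3.86 in WT. A difference in ligand RNA was not detectable at this signal. The 6 receptor chains were all above the filter and within 1.5-fold, with a median of 0.07. Ifngr2 had the highest difference, at 7.56 in CD36KO and 7.02 in WT (0.55), but -0.05 at its second probe set, and Ifnlr1 the lowest, at 6.66 in CD36KO and 6.89 in WT (-0.23).

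Of 7 signal transducers measured, the kinase Jak1 was the one past 1.5-fold at the probe set used, with 8.82 in CD36KO and 8.14 in WT (0.67, 1.59-fold higher). Its other probe sets differed by 0.15 and, below the filter, by -0.19. Jak2 differed by -0.15 at its strongest probe set and by 0.75 at the other. Of 7 inhibitors above the filter 0 passed 1.5-fold, and the feedback inhibitor Socs3 came closest, with 7.51 in CD36KO and 6.94 in WT (0.56). The 8 nucleic acid sensors and adaptors outside the member list and above the filter had a median of -0.10, and all lay within 1.5-fold.

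**Figure D3:**
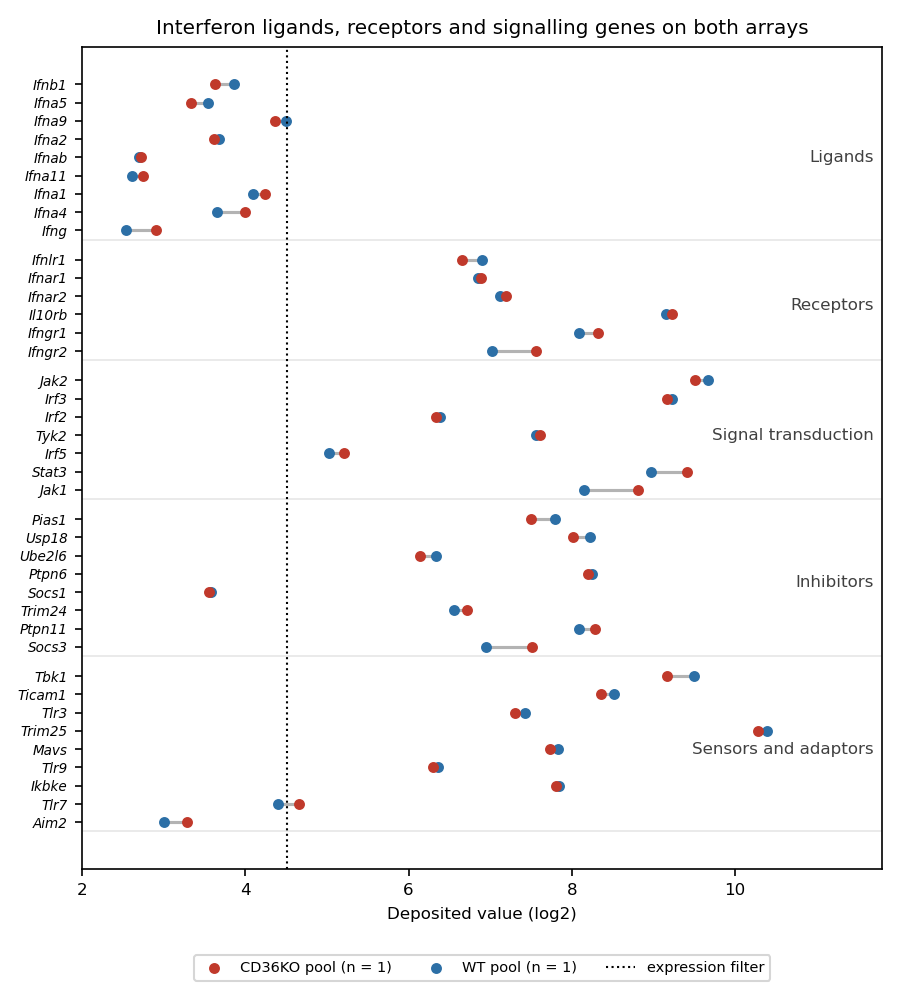
Deposited log2 value (horizontal axis) of interferon ligands, receptors, signal transducers, inhibitors, and sensors and adaptors in the CD36KO pool (red) and the WT pool (blue), 1 array each; the dotted line is the filter of 4.51. All 9 ligands lie to the left of the filter in both pools, and all 6 receptors to the right of it.

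Interferon targets outside the member list were compared next. Their counts past 1.5-fold stand beside 5.31% of all genes above the filter that were higher and 3.31% that were lower. The 33 other type I targets that passed the filter had a median of 0.02, and past 1.5-fold 2 were higher and 1 lower. The higher genes were Ifitm1 (0.87) and Ifitm3 (0.66), membrane proteins that block virus entry, with Ifitm3 at 10.39 in CD36KO and 9.73 in WT. The lower was Trim34a, at 6.77 in CD36KO and 7.66 in WT (-0.89), and its weak second probe set, below the filter, differed by 0.50. The 23 other gamma targets had a median of 0.08, with 13 higher and 10 lower. Past 1.5-fold, 0 were lower and 4 were higher. They were Gbp8 (0.99), the complement inhibitor Serping1 (0.92), the T cell chemokine Cxcl9 (0.65, and 0.25 at a probe set below the filter) and the tryptophan-degrading enzyme Ido1 (0.61). Immunoproteasome and peptide-loading genes of this list differed less, as Psmb8 (0.29), Psmb9 (0.22) and Tap1 (-0.03). Cxcl10, a chemokine induced by both kinds of interferon, read 5.47 in CD36KO and 5.87 in WT (-0.40).

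Markers of some immune cells and of smooth muscle were higher in the CD36KO pool. The counts past 1.5-fold below stand beside 5.31% of all genes above the filter that were higher and 3.31% that were lower. Of 11 macrophage and dendritic cell markers above the filter, of 14 measured, 10 were higher and 4 passed 1.5-fold, Cd68, Lyz2, C1qa and C1qc, with a median of 0.28. Cd68 passed the filter through the CD36KO pool alone (5.18 in CD36KO and 3.46 in WT). Without it, in a count chosen after the data were seen, 9 of 10 were higher, 3 passed 1.5-fold and the median was 0.25. The summed linear signal of the 11 markers was 3354 in CD36KO and 2154 in WT, and without Lyz2, the macrophage lysozyme, it was 1837 in CD36KO and 1450 in WT. Each sum adds probe sets of unequal response. Of 6 B and plasma cell markers above the filter, 5 were higher and 2 of these passed 1.5-fold, with a median of 0.47. Their sum was 7093 in CD36KO and 6624 in WT. For T and NK cells, which make interferon gamma, the median was -0.11 over 11 markers with 1 past 1.5-fold, the lower Klrd1. These had a sum of 3977 in CD36KO and 4149 in WT. All 8 smooth muscle markers were higher and 5 passed 1.5-fold, with a median of 0.73, the highest of these cell type lists. The myeloid markers Itgam, Xcr1 and Siglech were below the filter in both pools. The part of these markers in the difference of the gamma targets was not tested.

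**Figure D4:**
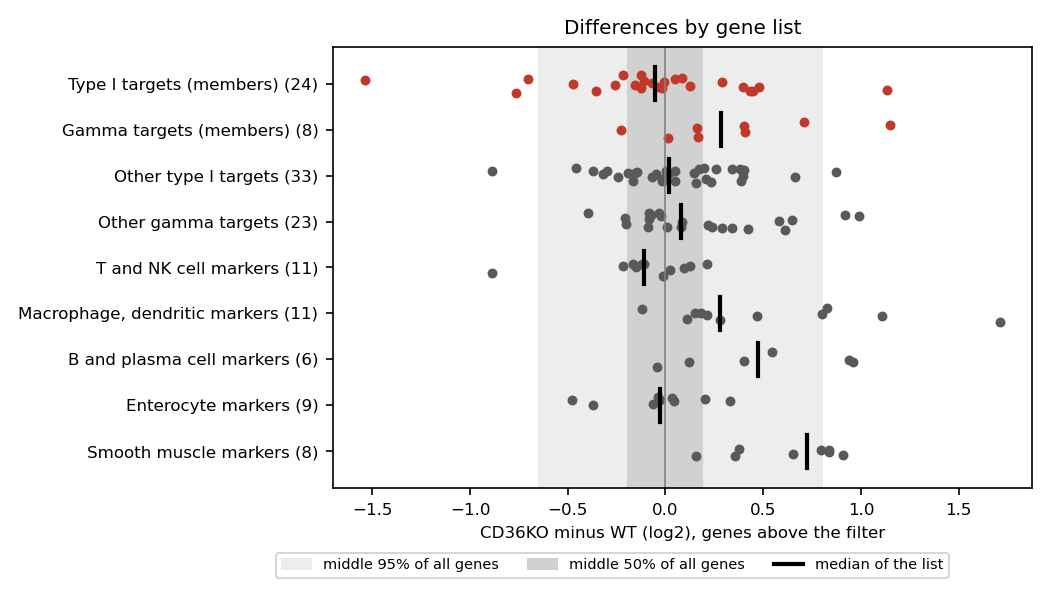
CD36KO minus WT difference (log2, horizontal axis) of each gene above the filter by list, with the number of genes in brackets, members in red, black bars at the list medians, and grey bands for the middle 50% and 95% of all genes above the filter. The bar of the gamma members is at 0.28 and that of the type I members at -0.05. Macrophage and dendritic markers have theirs at 0.28, and their median is 0.25 without Cd68, which passed the filter through the CD36KO pool alone.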

How the data were processed

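RNA of 3 mice per genotype was pooled and labelled as biotinylated cRNA from 100 ng, per the labels' protocols. The authors deposited 1 log2 value per probe set and array (45101 probe sets). The log base was read from the values, which reach 14.2. The sources used here name no summarization or normalization method and give no detection calls. The medians were 4.38 in CD36KO and 4.38 in WT. By the array's annotation 34958 probe sets had 1 symbol, 932 had more than 1 and were set aside, and 9211 are unnamed here.

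Where a gene had several probe sets, that of highest mean was used. Differences were computed without further normalization. The number of arrays limits the precision. Every member past 1.5-fold was named with all its probe sets, as were other pathway genes past 1.5-fold; further members and genes served to describe their family. The members, lists and roles were chosen with earlier results of these data known. Counting was tested on simulated data with 2-fold shifts and small noise. This checks the counting steps and not how far the 1.5-fold counts would repeat. Promoters were matched by symbol for 27 of the 36 members. Coordinates are those of RefSeq promoters, and neighbours follow the RefSeq gene order. Calculations used pandas 2.3.3 and statsmodels 0.14.6 under Python 3.11.15, with NumPy 2.4.6.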

Additional observations from a re-analysis of the deposited data

How the results depend on the processing

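The values were recomputed after median centring, after quantile normalization, after a lowess trend (fraction 0.3) was taken out, with probe sets averaged per gene, with the least different probe set of each gene, without the filter, with a filter at the 75th percentile, and at other folds. A median counted as moved at 0.1 or more. The gamma median was 0.17 with the least different probe sets and 0.40 with the stricter filter, and the type I median stayed within 0.1 of its value under each of these settings other than fold. Under the rescalings 0 of 32 members changed sign. With the least different probe sets 1 member was at least 1.5-fold lower. At 2-fold 1 was lower, and at 25% 9 were higher and 5 lower. Of the named interferon genes past 1.5-fold, Jak1 (-0.19) and Trim34a (0.50) changed sign at another probe set. Genes within 1.5-fold at the probe set used did so too, among them Cmpk2, Ifi35, Ifngr2, Jak2, Psmb8 and Tap1. The cause was not tested. No paired analysis was possible because each genotype has 1 array, and leaving out a replicate was not possible either. The table has no detection calls, so signal and background cannot be told apart at low values.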
